A study of Mus musculus with 15 samples.

Results

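Mouse chromosome 10 (Chr10) was followed probe by probe in 5 hepatocellular carcinomas (HCC) and 3 unaffected livers by array comparative genomic hybridisation (aCGH). The probes were all non-control probes that the array files place on Chr10, in order of position, and there were 2028 of them among 42404 distinct probes of the array and 40726 on autosomes. They ran from position 3051921 to 129793418, with a median spacing of 24.2 kb against 21.5 kb over all autosomes. The largest gap between neighbouring probes was 3.17 Mb. A gene name was given for 1702 of the probes, with 1005 distinct names, and 326 probes were named by position only. All 2028 had a value in every tissue, so none was lost to a filter. The build of these positions is not named in the files.

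The 15 arrays covered 3 mice whose strain label gives floxed Mad2 (Mad2l1), floxed p53 (Trp53) and Albumin-Cre, which recombines floxed alleles in hepatocytes. Every mouse was Mad2 f/f, controls included. Mouse 3151 was a female of 16.4 months with p53 f/+, and it gave HCC 1 (its tumour 2), HCC 2 (its tumour 1) and unaffected liver 1. Mouse 3760 was a male of 13.8 months with p53 f/f, and it gave HCC 3 (its tumour 2) and unaffected liver 2. Mouse 4033 was a male of 13.9 months with p53 f/f, and it gave HCC 4 (its tumour 2), HCC 5 (its tumour 1) and unaffected liver 3. The unaffected livers therefore carried the same alleles as the tumours beside them, and the comparison holds no tissue without the floxed alleles. Each tissue was set against normal liver DNA of strain C57BL/6.129 and of the other sex. Dye-swapped pairs of arrays existed for 7 tissues, and HCC 3 had the forward array alone. The DNA came from pieces of tissue that can hold other liver cells, stroma and immune cells as well as tumour cells, so a change in copy number and the share of cells that carries it cannot be told apart. The dye-swapped arrays repeat the same DNA and were averaged. HCC 1 and HCC 2 share a mouse, as do HCC 4 and HCC 5, and the main tests count each tissue as independent. The p-values therefore measure the spread between these tissues and not that between animals.

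In aCGH, tissue DNA and reference DNA carry different dyes and bind side by side to the same probes, and a chromosome present in fewer copies gives a lower ratio over its whole length. Mad2l1 encodes a core protein of the spindle assembly checkpoint, which delays anaphase until every chromosome is attached to the spindle, and cells without it missegregate whole chromosomes. Mouse Chr10 carries Mdm2, which encodes the ubiquitin ligase that holds p53 down, along with Stk11, Lats1, Foxo3, Myb and Igf1, and a group of genes of amino acid metabolism in hepatocytes such as Arg1 and Hal. All values below are log2 ratios of tissue over reference, centred on the autosomal median of each array, and the level of Chr10 is the mean over its probes.

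Some of the probes that carry the results are shown with the sequences given in the array files, in the order in which they are used. The first pair are the probes without a gene name closest to the ends of the chromosome. The next pair are the probes without a gene name in a short segment that lay deeper than the rest of Chr10 in HCC 5. The last set are probes that stood far from the rest of Chr10 in every tissue of a mouse. No letters are set in capitals because no site within the probes was compared.
First unnamed probe, chr10:3051921-3051980: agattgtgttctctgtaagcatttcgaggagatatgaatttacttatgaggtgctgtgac
Last unnamed probe, chr10:129577146-129577201: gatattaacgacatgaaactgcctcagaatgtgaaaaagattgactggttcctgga
Segment probe, chr10:79669470-79669529: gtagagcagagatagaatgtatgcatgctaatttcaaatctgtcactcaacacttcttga
Segment probe at the distal edge, chr10:79828891-79828950: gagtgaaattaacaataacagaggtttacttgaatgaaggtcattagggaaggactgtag
High in mouse 3151, no gene name, chr10:21876152-21876211: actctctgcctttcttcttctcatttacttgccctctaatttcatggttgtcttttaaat
High in mouse 4033, Gprc6a, chr10:51338012-51338071: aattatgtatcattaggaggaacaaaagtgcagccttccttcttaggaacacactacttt
Low in mouse 4033, Ntn4, chr10:93173764-93173823: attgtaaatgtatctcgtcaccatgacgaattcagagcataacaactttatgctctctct

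Chr10 was low in 1 tumour and near the level of the livers or modestly away from it in the others. From HCC 1 to HCC 5 its levels were 0.014, -0.12, 0.19, 0.013 and -0.55. The unaffected livers gave -0.050, -0.033 and -0.0059. HCC 5 lay far below every other tissue, HCC 2 lay below all 3 livers by less, and HCC 1, HCC 3 and HCC 4 lay above all 3. The places of HCC 1, HCC 2 and HCC 4 turned with the centring: on the mode of each array they read -0.098, -0.028 and -0.029, which put HCC 1 below all livers and the other 2 among them. Relative to the liver of the same mouse, the same 5 tumours differed by 0.064, -0.073, 0.22, 0.019 and -0.54, and with centring on the mode HCC 1, HCC 2 and HCC 4 each lay on the other side of their own liver. Only HCC 5, of 5 tumours, passed an absolute level of 0.3, the size taken here for a whole-chromosome event, and no liver did.

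The dye orientations gave close values where both existed. In HCC 5 the forward array gave -0.53 and the dye-swap array -0.57, and in HCC 2 they gave -0.14 and -0.11. The orientations were farthest apart in unaffected liver 1, at -0.091 and -0.0087, a gap larger than the level itself. HCC 3, the only tumour with a raised Chr10 above 0.1, rests on a single array, so its level has no second orientation behind it. The X chromosome, which differs by 1 copy between tissue and reference in these sex-mismatched hybridisations, gave a mean absolute level of 0.89 in the livers. On that scale the gap between HCC 5 and its own liver was 0.613 of the X difference, and that between HCC 3 and its own liver 0.247. With centring on the mode HCC 5 read -0.80 and its own liver -0.0027, a wider gap, so the share for HCC 5 depends on the centring. A gained copy moves the log2 ratio less than a lost one, so the value for HCC 3 is not its share of a gained copy.

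**Figure D1:**
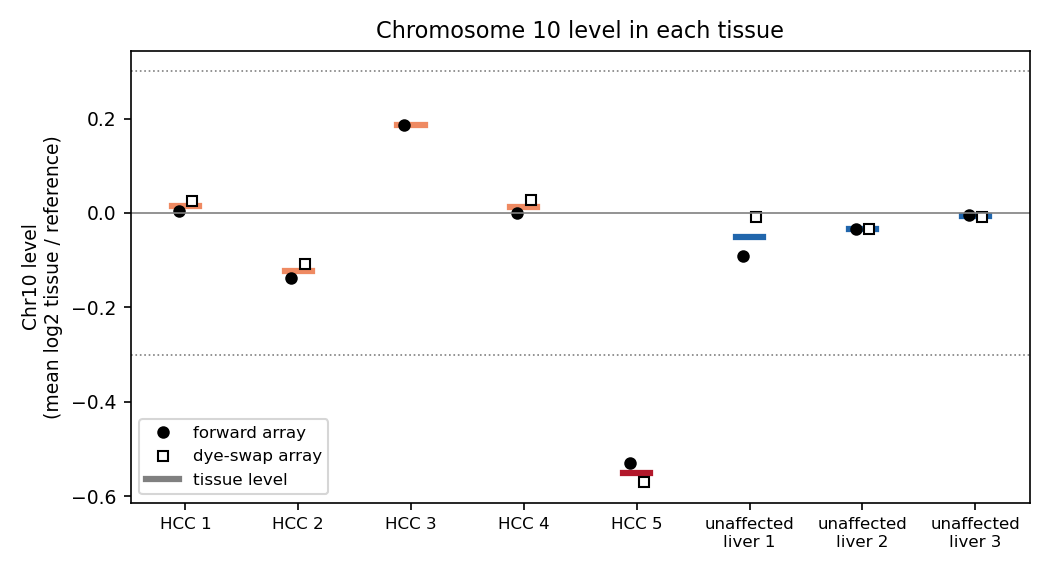
The plot of Chr10 levels shows the mean log2 ratio of tissue over reference (y axis) for each of the 8 tissues (x axis), with a bar for the tissue level, a filled circle for the forward array, an open square for the dye-swap array and dotted lines at -0.3 and 0.3. HCC 5 sits at -0.55 with both arrays below -0.5, and all other tissues lie between -0.12 and 0.19.

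The difference between tumours and livers on Chr10 was smaller than the spread between tumours. Chr10 averaged -0.092 ± 0.28 (SD, n = 5) over the tumours and -0.030 ± 0.022 (SD, n = 3) over the livers. The limma difference was -0.062 (SE 0.13, adjusted p = 0.704 over 19 autosomes). Chr10 was thus not called, where 5.26% of the 19 autosomes were. The direction rested on HCC 5, and without it the difference was 0.052. Within scan days the signs were opposite: the difference was -0.16 on day 1, which held HCC 3, HCC 5 and unaffected livers 2 and 3, and 0.018 on day 2, which held the other 3 tumours and unaffected liver 1, so that HCC 4 was scanned apart from its own liver. The absolute level, which counts gain and loss alike, averaged 0.18 ± 0.22 (SD, n = 5) over tumours and 0.030 ± 0.022 (SD, n = 3) over livers, and the difference of 0.15 did not pass the exact permutation test (p = 0.339, two-sided, 56 splits, smallest possible p 0.0179). The p53 f/+ genotype was 1 mouse, so the genotypes are not compared.

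The tumours of mouse 4033 did not share the level of Chr10. HCC 4 and HCC 5 grew in mouse 4033 and were compared with the same unaffected liver, yet Chr10 in HCC 5 lay 0.56 below that in HCC 4. The difference held in all 13 windows of 10 Mb along the chromosome, from -0.61 to -0.50. HCC 1 and HCC 2 of mouse 3151 differed by 0.14, with HCC 1 higher in all 13 windows, but with centring on the mode HCC 1 was the lower, at -0.098 against -0.028. These are single pairs of tissues and carry no test. HCC 4 and HCC 5 were also on different slides and scan days, while HCC 1 and HCC 2 shared both.

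Among the autosomes of HCC 5, Chr10 was the lowest of 19, and its level was the lowest of all 95 levels of an autosome in a tumour. With normexp background correction it was -0.47 and ranked 2 from the lowest in both. The next lowest was Chr13, also in HCC 5, at -0.49. By absolute size Chr10 ranked 2 of 19 for HCC 5, 10 for HCC 3 and 13 for HCC 2, and for both HCC 1 and HCC 4 it ranked 19, the autosome closest to the autosomal median. The SD of its level over the 5 tumours was 0.28, the third largest of the autosomes, whose median SD was 0.18.

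**Figure D2:**
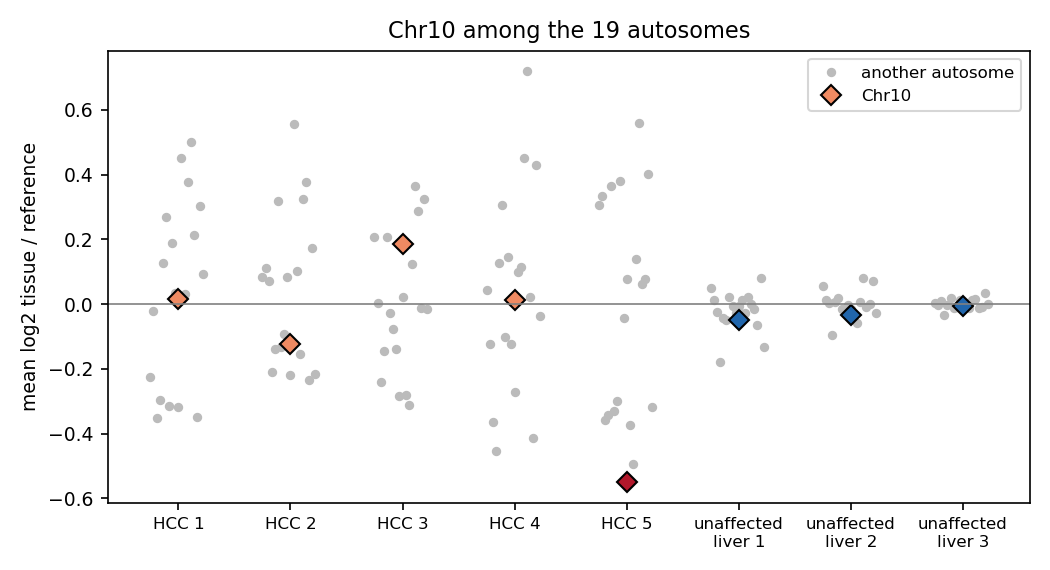
The plot of autosomes gives the mean log2 ratio (y axis) of each of the 19 autosomes in every tissue (x axis), with Chr10 as a diamond and the others as grey points. Chr10 is the lowest point in HCC 5 at -0.55 and sits at 0.014 and 0.013 in HCC 1 and HCC 4, inside the spread of the other autosomes.

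Along its length Chr10 was level in every tissue. In HCC 5 the 13 windows of 10 Mb ran from -0.58 to -0.52, a range of 0.063, and none approached the level of the liver. In HCC 3 they ran from 0.16 to 0.21, and in HCC 2 from -0.14 to -0.067. The windows of HCC 1 lay between -0.010 and 0.076 and those of HCC 4 between -0.049 and 0.072. The 3 livers stayed between -0.084 and 0.030. None of the 13 windows was called by limma, where 3.92% of 255 autosomal windows were, and the difference between groups was negative in all 13, from -0.081 to -0.044. The SD of the window levels within a tissue averaged 0.024 ± 0.0060 (SD, n = 5) over tumours and 0.018 ± 0.0024 (SD, n = 3) over livers. The difference was 0.0055 (p = 0.179 by exact permutation, two-sided). With normexp background correction this difference was 0.010 with the smallest p the splits give, 0.0179.

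**Figure D3:**
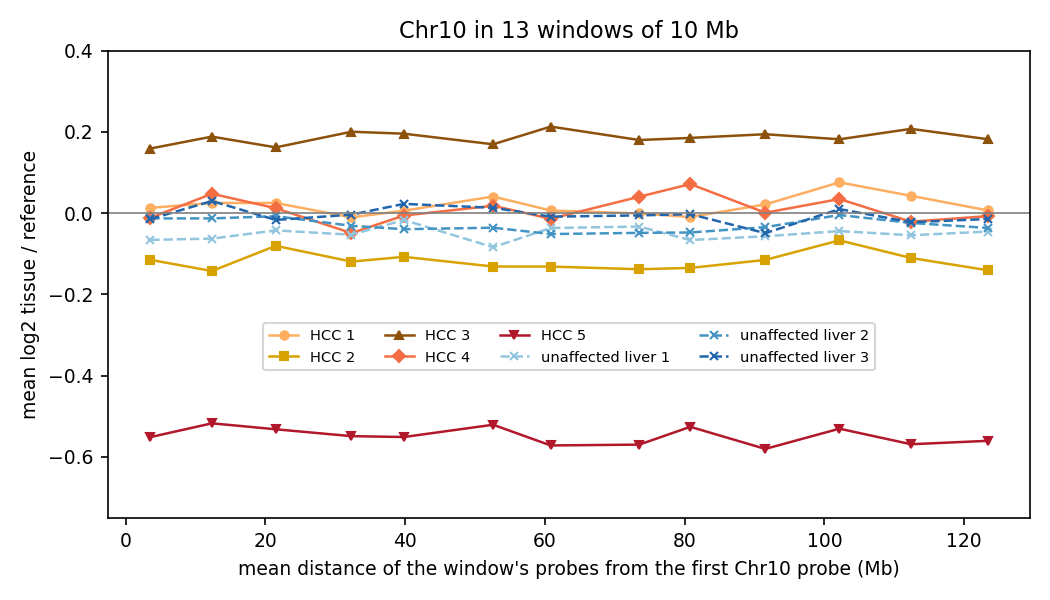
The plot of windows shows the mean log2 ratio (y axis) of 13 windows of 10 Mb against the mean distance of their probes from the first Chr10 probe in Mb (x axis), with a line for each tissue, solid for HCC and dashed for unaffected liver. The HCC 5 line stays between -0.58 and -0.52 from end to end, and the HCC 3 line between 0.16 and 0.21.

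The ends of the chromosome showed the same. The first of the unnamed probes shown above read -0.52 in HCC 5 and between 0.036 and 0.15 in the other 4 tumours, with -0.099, -0.034 and -0.064 in the livers. The last unnamed probe read -0.57 in HCC 5 and -0.027, -0.15, 0.078 and 0.18 in HCC 1 to HCC 4, with -0.065, -0.055 and 0.016 in the livers. At both ends HCC 5 alone was below all other tissues. Over the whole set of 2028 probes, 1932 read -0.3 or lower in HCC 5, and the longest run of neighbouring probes above that value was 3. HCC 5 was below its own liver at 99.5% of Chr10 probes, against 48.8% of all autosomal probes, and at least 0.3 below it at 94.5% against 26.8%. In HCC 3, 33.1% of Chr10 probes were at least 0.3 above the liver of the same mouse, against 15.1% of autosomal probes. In HCC 2, 67.0% of Chr10 probes were below the own liver, against 48.6% of autosomal probes. HCC 1 and HCC 4 were below their livers at 38.6% and 41.1%, against 48.3% and 50.6% of autosomal probes.

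A segment of 33 probes in HCC 5 lay deeper still. Segmentation of HCC 5 against its own liver divided Chr10 at only 2 places, at the edges of chr10:79353883-79828950, a stretch of 0.475 Mb. The mean of this segment was -0.77 in HCC 5, or -0.23 relative to the Chr10 median of that tumour (SD over probes 0.24), and 29 of its 33 probes lay below the median. Relative to the Chr10 median, the same probes averaged -0.095, -0.0019, 0.019 and 0.043 in HCC 1 to HCC 4, and 0.046, -0.028 and 0.011 in unaffected livers 1 to 3. HCC 5 was thus the lowest tissue there, and the sister tumour and the liver of the same mouse were not low. Both dye orientations showed the drop in HCC 5, with -0.23 from the forward array and -0.24 from its swap. The 33 probes before the segment averaged 0.023 and the 33 after it 0.049 relative to the Chr10 median, so the surrounding probes were not low. Probe GC content was 40.7% in the segment against 38.5% and 39.6% beside it, and with GC content regressed out the segment mean was -0.24. All 8 alternative settings divided HCC 5 minus its own liver at 2 places around the same stretch, and only normexp correction moved an edge, to position 79302611. The segment was chosen by its values in 1 tumour and is given without a test.

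The segment holds several genes of known function. Stk11 encodes a kinase that activates AMPK and is a tumour suppressor, and its single probe read -0.17, -0.047, 0.35, -0.039 and -0.83 in HCC 1 to HCC 5 and 0.11, -0.12 and -0.030 in the livers. HCC 5 was the lowest tissue and HCC 3 the highest. Plk5, a member of the polo-like kinase family listed under an older name in the files, read -0.98 in HCC 5 and between -0.15 and 0.22 in the other tumours, with -0.11, -0.14 and -0.10 in the livers. Gamt, the methyltransferase that makes creatine, read -0.76 in HCC 5, 0.48 in HCC 4 and -0.064 in their shared liver. Other names in the segment are Cfd, which encodes complement factor D, Med16 of the Mediator complex, Abca7, Efna2 and Ndufs7. The unnamed probes shown above read -0.94 and -1.05 in HCC 5, while HCC 4 gave -0.12 and 0.12 and unaffected liver 3 gave -0.013 and 0.056. The 4 probes of the segment that did not lie below the Chr10 median were those of BC032886, Sbno2, Dos and 1 of 2 Apc2 probes, and Dos and that Apc2 probe lay 0.49 and 0.48 above it.

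**Figure D4:**
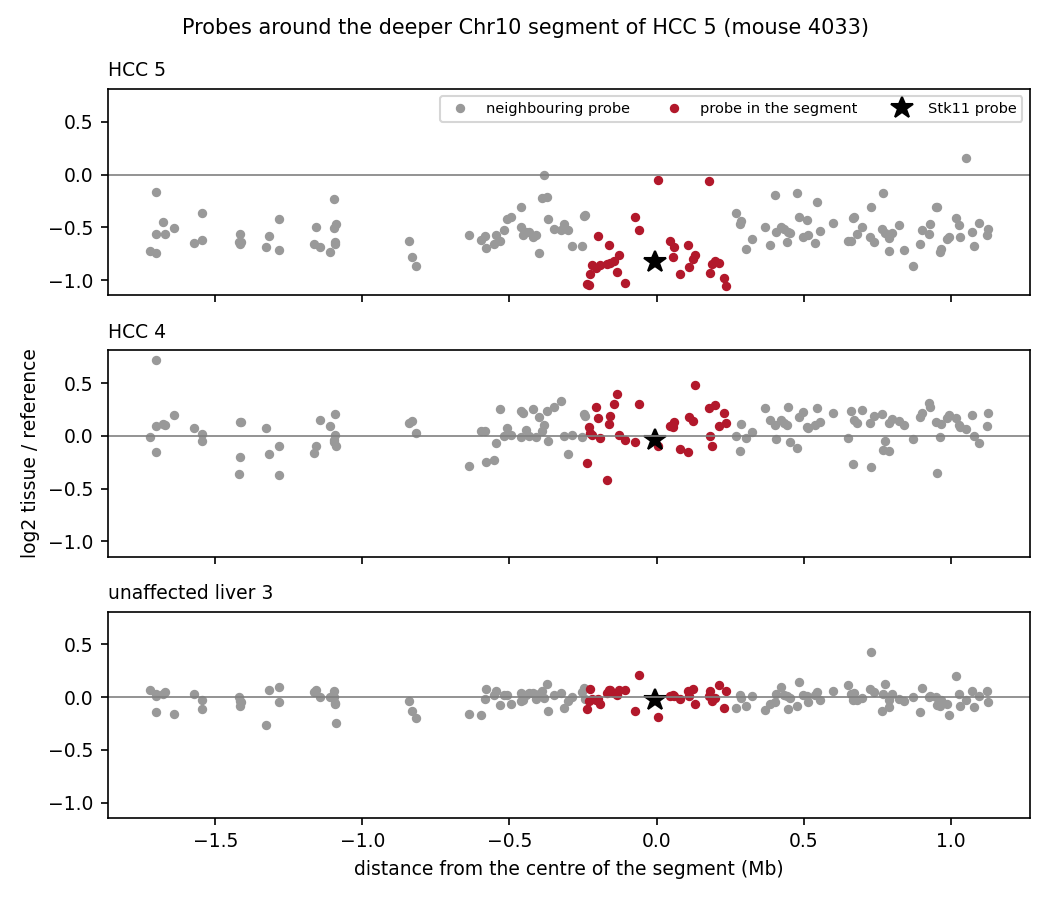
The plot of the segment shows the log2 ratio (y axis) of each probe against its distance from the centre of the segment in Mb (x axis) in HCC 5, HCC 4 and unaffected liver 3, all of mouse 4033, with red points for the 33 probes of the segment, grey points for neighbours and a star for Stk11. Most red points of HCC 5 lie below the grey ones, with a mean of -0.77, and in the other 2 tissues red and grey points overlap.

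The other divisions of Chr10 bounded short stretches of probes. Against the reference, Chr10 was undivided in HCC 1, HCC 2, HCC 3 and unaffected livers 1 and 2, with 2 breakpoints in HCC 4, 8 in HCC 5 and 6 in unaffected liver 3. The mean number was 2.0 in both groups (exact permutation p = 1, two-sided). All 3 divided tissues came from mouse 4033. Apart from the segment around Stk11, the pieces under 60 probes were stretches of 5 probes around Gprc6a in HCC 5, Ntn4 and Usp44 in HCC 5 and unaffected liver 3, and Tbc1d15 in all 3 tissues, plus a stretch of 13 probes in unaffected liver 3. In each 5-probe stretch a single probe carried most of the shift. The Gprc6a stretch stood 0.42 above the Chr10 median of HCC 5, and 0.030 without that probe. The Tbc1d15 stretch stood at -0.73 in HCC 5 and -0.083 without its probe, at -0.69 in HCC 4 and -0.17 without it, and at -0.71 in unaffected liver 3 and -0.11 without it. The Ntn4 stretch stood at -0.84 in unaffected liver 3 and -0.41 without its probe, where the rest was led by a Usp44 probe. The 13-probe stretch, from Pex3 to Gpr126, stood 0.20 above the Chr10 median of unaffected liver 3 and 0.14 without the Aig1 probe. None of its probes lay below that median, and its dye orientations gave 0.17 and 0.25. The same probes averaged 0.16, 0.13 and 0.17 in HCC 3, HCC 4 and HCC 5. In HCC 1 and HCC 2 they averaged -0.090 and 0.0030, and in unaffected livers 1 and 2 -0.15 and 0.062. Their orientations had opposite signs in HCC 1, HCC 2, HCC 4, HCC 5 and unaffected liver 1. With the 4 probes described next left out, HCC 4 had no breakpoint, HCC 5 had 2 and unaffected liver 3 had 4, while unaffected liver 2, undivided with them, had 1.

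The 4 probes stood at least 1 from the Chr10 median, on the same side, in every tissue of a mouse, tumour and liver alike. Such probes made up 0.197% of Chr10 probes and 0.390% of autosomal probes. The probe without a gene name at chr10:21876152-21876211 read 1.48, 1.49 and 1.31 relative to the Chr10 median in HCC 1, HCC 2 and unaffected liver 1, and between -0.40 and 0.16 in the 5 tissues of the other mice. The Gprc6a probe, in the gene of an amino acid-sensing receptor, read 2.12, 1.96 and 1.26 in HCC 4, HCC 5 and unaffected liver 3, and between -0.075 and 0.22 elsewhere. These probes were chosen for standing far out in a whole mouse, so the gap to the other mice is no separate result. The Ntn4 probe, in the gene of the secreted guidance protein netrin 4, read -2.19, -1.76 and -2.54 in the 3 tissues of mouse 4033 and between -0.13 and 0.24 elsewhere. The Tbc1d15 probe, in the gene of a Rab GTPase-activating protein, read -2.75, -3.34 and -3.09 in mouse 4033, -0.70, -0.080 and -0.48 in mouse 3151, and 0.79 and 0.92 in mouse 3760. In mouse 3151 its dye orientations had opposite signs in all 3 tissues, with log2 ratios of -1.40 and 0.063 in HCC 1, -0.56 and 0.15 in HCC 2, and -1.46 and 0.42 in unaffected liver 1, so its values there are averages of opposite readings. Neighbouring probes of the same genes moved less or not at all. The 2 nearest Gprc6a probes lay between -0.15 and 0.083 in the tissues of mouse 4033. The second Tbc1d15 probe read -0.39, -0.089 and -0.33 in HCC 4, HCC 5 and unaffected liver 3, and between -0.24 and 0.38 elsewhere. The nearest other Ntn4 probe read -0.35, -0.43 and -0.31 in these tissues and between -0.066 and 0.40 elsewhere, so it too was lowest in mouse 4033, by less.

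The dye orientations of these probes had the same sign in mouse 4033 but not everywhere. For the Ntn4 probe the log2 ratios, without subtraction of the Chr10 median, were -2.35 and -1.95 in HCC 4 and -2.76 and -2.32 in unaffected liver 3. In unaffected liver 1 the same probe gave -1.70 in the forward orientation and 1.55 in the swap, in HCC 1 it gave -0.94 and 1.49, and in HCC 2 it gave -0.98 and 0.97, so its value near 0 in mouse 3151 is an average of opposite readings. For the unnamed probe all 6 arrays of mouse 3151 were high, from 1.10 to 1.73.

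**Figure D5:**
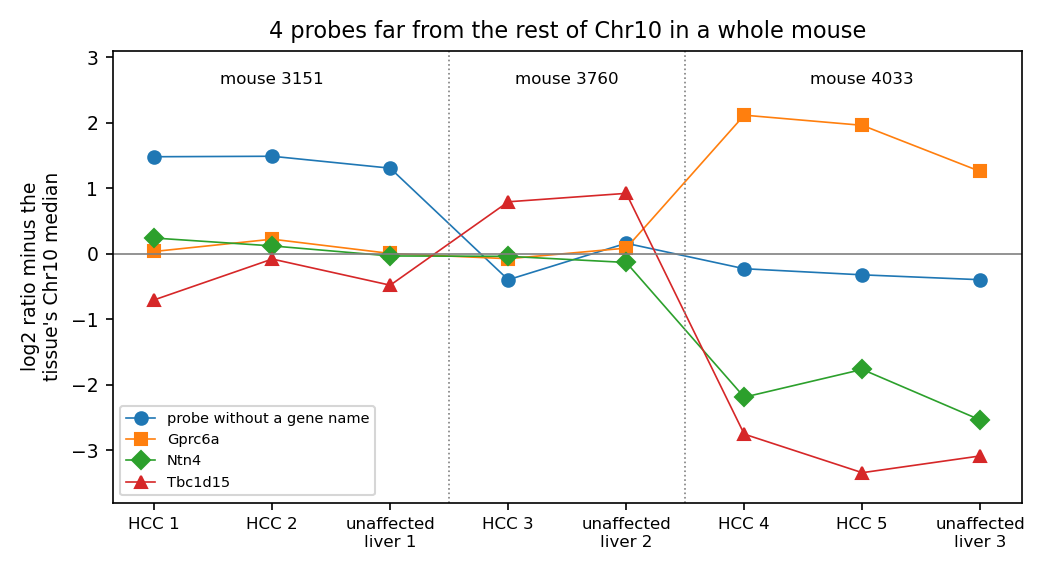
The plot of 4 single probes gives the log2 ratio minus the Chr10 median of the tissue (y axis) for the 8 tissues ordered by mouse (x axis), with a symbol for each probe. In mouse 4033 the Tbc1d15 and Ntn4 probes lie between -3.34 and -1.76 and the Gprc6a probe between 1.26 and 2.12, in tumours and liver alike.

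At a threshold of 0.5, 11 Chr10 probes met the same rule, or 0.542%, against 1.32% of autosomal probes. A group of 3 of them fell between chr10:13550327 and chr10:15023839. They too were chosen for standing out in a whole mouse, so their gaps between mice are no separate result. The Aig1 probe read -0.64, -1.30 and -0.80 in HCC 1, HCC 2 and unaffected liver 1 and 0.93, 0.87 and 0.92 in HCC 4, HCC 5 and unaffected liver 3. The probe of the transcript AK204419 read -0.65, -1.72 and -0.83 in the first set and 0.68, 0.67 and 0.92 in the second. The Gpr126 probe, in an adhesion receptor gene, read -0.58, -1.01 and -0.63 in the first and 0.50, 0.45 and 0.45 in the second. In all 3 probes mouse 3151 was low, mouse 4033 was high, mouse 3760 lay between -0.20 and 0.071, and HCC 2 was the lowest tissue. The Gpr126 value of HCC 1 rests on the dye-swap array alone. The stretch from Pex3 to Gpr126, without the Aig1 probe, averaged -0.0435, 0.11 and -0.098 in HCC 1, HCC 2 and unaffected liver 1. In HCC 4, HCC 5 and unaffected liver 3 it averaged 0.066, 0.12 and 0.14, so the neighbouring probes moved less.

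Genes of the p53 pathway and of cell death were low in HCC 5 along with the rest of Chr10. All 9 listed genes were measured, and all 9 were below the own liver in HCC 5, beside 99.4% of Chr10 gene names, with a median level of -0.50 beside -0.54 for all 1005 Chr10 gene names and 0.025 for all autosomal gene names. Mdm2 read -0.051, -0.049, 0.23, -0.071 and -0.58 in HCC 1 to HCC 5 and 0.091, -0.048 and -0.026 in the livers. HCC 5 was below and HCC 3 above all other tissues. Apaf1, which forms the apoptosome, read 0.012, -0.097, 0.079, 0.0075 and -0.50 in the tumours and 0.065, 0.067 and -0.042 in the livers. Ddit4, an inhibitor of mTORC1 induced by stress, had the lowest value of the list in HCC 5, at -0.84 from a single probe. Perp, a p53 target of cell death, read -0.29 and -0.37 in HCC 1 and HCC 2, and the liver of the same mouse read -0.21. In HCC 3 none of the 9 was below the own liver, beside 9.95% of Chr10 gene names. The median difference there was 0.15, beside 0.21 for all Chr10 gene names.

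Of 16 listed genes of growth signalling 15 were measured, and all 15 were at -0.3 or lower in HCC 5, with a median level of -0.60. The share at -0.3 or lower there was 95.8% of all Chr10 gene names and 28.2% of autosomal names, so this count and those of the next lists are close to the Chr10 background. Myb, a transcription factor of progenitor cells, read 0.17, -0.22, 0.23, 0.027 and -0.82 in HCC 1 to HCC 5 and 0.13, -0.092 and -0.0043 in the livers. Igf1, the growth factor secreted by hepatocytes, read 0.025, -0.042, 0.13, 0.22 and -0.59 in the tumours and -0.059, 0.072 and -0.0021 in the livers. Both were lowest in HCC 5, without overlap. Hmga2, a chromatin protein of embryonic cells, read 0.43 in HCC 3 and -0.60 in HCC 5, with -0.17, -0.056 and -0.055 in the other tumours. Yeats4, a reader of acetylated histones, was the exception in its list, since its single probe was lowest in HCC 2 at -0.87 and not in HCC 5 at -0.61. Esr1, the oestrogen receptor, was the highest of the list in HCC 5, at -0.36.

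Of 16 listed tumour suppressors 13 were measured, and all 13 were at -0.3 or lower in HCC 5, beside 95.8% of Chr10 gene names. Their median there was -0.54, the same as that of all Chr10 gene names. Lats1, a kinase of the Hippo pathway, read -0.068, 0.11, 0.43, 0.13 and -0.49 in HCC 1 to HCC 5 and 0.0023, 0.084 and 0.076 in the livers. Foxo3, a transcription factor held down by Akt, read -0.32, -0.18, 0.29, -0.18 and -0.46 in the tumours and -0.25, -0.090 and 0.049 in the livers. HCC 5 was lowest for both, but for Foxo3 HCC 1 and its liver were also low. Prdm1, a repressor of lymphocyte genes, was the only gene of the list with its lowest tumour elsewhere, at -0.62 in HCC 1 against -0.51 in HCC 5. The mean of the 2 probes of Hace1, a ubiquitin ligase, was below 0 in all 5 tumours. It ran from -0.47 in HCC 5 to -0.010 in HCC 2. The probe named again below read -0.28, 0.067, -0.71, -0.20 and -0.56 in HCC 1 to HCC 5. Its dye orientations in HCC 4 had opposite signs, at -0.66 and 0.25. In HCC 3, 2 of the 13 genes (15.4%) were below the own liver, beside 9.95% of Chr10 gene names. Hace1 was among them with a mean difference of -0.34, which rests on the single array of HCC 3.

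Genes of mitosis and the cell cycle were measured for 14 of 16. All 14 were at -0.3 or lower in HCC 5, beside 95.8% of Chr10 gene names, with a median level of -0.53. None was below the own liver in HCC 3, beside 9.95% of Chr10 gene names, and the median difference there was 0.23. Cdk1, the kinase that drives entry into mitosis, read -0.0026, -0.22, 0.41, 0.066 and -0.49 in HCC 1 to HCC 5 and 0.073, 0.034 and 0.0069 in the livers. Zwint, a kinetochore protein, read 0.16, 0.00038, 0.30, -0.031 and -0.57 in the tumours and 0.030, 0.14 and 0.13 in the livers. Fzr1, which activates the anaphase-promoting complex, read -0.63 in HCC 5, whose liver gave 0.022, and 0.22 in HCC 3, whose liver gave -0.24. Both Cdk1 and Fzr1 had HCC 5 as the lowest and HCC 3 as the highest tissue. Cdk19, a kinase of the Mediator complex, was the exception, since its single probe was lowest in unaffected liver 1, at -1.18, and in HCC 4, at -0.61.

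Genes of liver metabolism were measured for 20 of 21. In HCC 5 all 20 were below the own liver and 19 were at -0.3 or lower, beside 99.4% and 95.8% of Chr10 gene names. Arg1, the arginase of the urea cycle, read 0.054, -0.097, 0.28, -0.00051 and -0.53 in HCC 1 to HCC 5 and 0.16, 0.0050 and -0.038 in the livers. HCC 5 lay below all other tissues there. Hal, which breaks down histidine, was the gene above -0.3 in HCC 5, at -0.22, and 1 of its 2 probes was among those high in mouse 3760. Relative to the Chr10 median that probe also read 0.65 in HCC 5 and 0.34 in its own liver. Enpp1, a membrane pyrophosphatase, had the lowest value of the list in HCC 5 at -0.86. Nr1h4, the bile acid receptor, read -0.47 there and 0.30 in HCC 3. None of the 20 was below the own liver in HCC 3, beside 9.95% of all Chr10 gene names.

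Immune genes were measured for 8 of 17, and the Raet1 and lysozyme genes were among those without a probe name on Chr10. All 8 were below the own liver in HCC 5, beside 99.4% of Chr10 gene names, with a median level of -0.54. Ifng, the gene of interferon gamma, read -0.11, -0.23, 0.17, 0.11 and -0.56 in HCC 1 to HCC 5 and 0.0097, -0.010 and -0.0034 in the livers. Itgb2, an integrin of leukocytes, read 0.53 in HCC 3 and -0.73 in HCC 5. Stat2, a transcription factor of interferon signalling, was closest to 0 in HCC 5, at -0.28. Among the multigene families on Chr10, 36 Olfr, Taar and Vmn2r names were measured, whose copies can share hybridising sequence. All 36 were below the own liver in HCC 5 with a median level of -0.51, with levels from -1.07 at Olfr807 to -0.23 at Olfr9, and 35 of 36 had their lowest tumour in HCC 5. That share was 97.2%, beside 95.7% of all Chr10 gene names and 23.9% of autosomal gene names.

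No single Chr10 probe passed the test between groups. None of the 2028 was called by limma, where 0% of 40720 autosomal probes were, and the lowest adjusted p was 0.446. At an unadjusted p of 0.05, 1 probe was higher and 2 were lower in HCC, in a background of 5.34% higher and 2.06% lower over all autosomal probes. On Chr10 this is 0.148% of probes. The highest-ranked higher probe was in Heca, at 0.88, 0.48, 0.33, 0.34 and -0.59 in HCC 1 to HCC 5 and -0.86, 0.25 and -0.42 in the livers (difference 0.63, SE 0.29, limma adjusted p = 0.673). The groups overlapped there, since HCC 5 was below 2 of the 3 livers. Its dye orientations lay far apart in HCC 1 (0.22 and 1.53), HCC 5 (-1.09 and -0.087) and unaffected liver 1 (-1.60 and -0.12). The next 4 higher probes were in Si, at a position without a gene name, in Adora2a and in Aes, with differences from 0.26 to 0.44 and adjusted p from 0.722 to 0.783. The orientations of the Si probe had opposite signs in all 3 livers, HCC 2 and HCC 4. Those of the Adora2a probe gave 0.24 and 2.62 in HCC 1. The highest-ranked lower probe had no gene name (chr10:50292065-50292124) and read -0.31, -0.25, -0.10, -0.12 and 0.21 in HCC 1 to HCC 5 and 0.44, 0.22 and 0.36 in the livers (difference -0.45, SE 0.15, limma adjusted p = 0.446). HCC 5 was the highest tumour there, unlike over most of Chr10, but its dye orientations had opposite signs, at -0.13 and 0.56. The same held in HCC 1 (0.31 and -0.93), HCC 4 (-0.64 and 0.39) and unaffected liver 1 (-0.57 and 1.45). The values of these tissues at this probe are thus averages of opposite readings. The next 4 lower probes were in Sim1, Hace1, Wdr18 and Slc16a7, with differences from -0.41 to -0.32 and adjusted p from 0.668 to 0.694. The Slc16a7 probe, in the gene of a monocarboxylate transporter, read -0.072, -0.18, -0.059, -0.096 and -0.64 in the tumours and 0.24, 0.040 and 0.062 in the livers, where the value of unaffected liver 1 rests on the dye-swap array alone. The groups did not overlap there, as at 5 Chr10 probes with lower tumours, or 0.247%, in a background of 3.22% of autosomal probes. No Chr10 probe had all tumours above all livers, in a background of 5.3%. HCC 5 was the lowest of the 8 tissues at 93.2% of Chr10 probes, against 20.9% of autosomal probes. At those probes all tumours could not lie above all livers, so this count mostly restates the low Chr10 of HCC 5. The low HCC 5 also widened the spread between tumours that enters the limma p-values of Chr10 probes.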

How the data were processed

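Genomic DNA of 8 tissues of 3 mice was measured on 15 two-colour arrays, with both dye orientations of a DNA averaged to 1 replicate. Per the file headers, the authors made the intensity values with Agilent Feature Extraction 9.1.3.1, background-subtracted and dye-normalised within each array. The series matrix holds the deposited log10 ratios, which equal these with dye-swap arrays turned in sign, and was used as an alternative. All columns of the tables belonged to these arrays, so 0 were left out.

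The log2 ratio of tissue to reference was taken from the processed intensities. Control spots and spots marked as outliers were dropped, repeated spots of a probe were averaged, and the autosomal median of each array was set to 0 without loess. Groups came from the labels. Of the Chr10 spots of an array, 0.0969% to 2.33% were not well above background and 0 were saturated. The number of tissues limits the precision. Median signal over background ran from 3.72 to 7.95 in red and from 3.78 to 6.88 in green.

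HCC and unaffected liver were compared with limma 3.58.1 in R 4.3.3 (lmFit and eBayes, two-sided) over 19 autosomes, 255 windows of 10 Mb with at least 10 probes, and all autosomal probes, with Benjamini-Hochberg adjustment and a threshold of 0.05. For single values the difference of means was tested by exact permutation over 56 splits. Segments came from optimal partitioning with segments of 5 probes or more, where each division cost 3 times the noise variance, scaled by the natural log of the autosomal probe count. The steps were tested on simulated data. The members and lists were chosen with earlier results of these data known. Named were the genes of 6 lists (p53 and cell death, growth signalling, tumour suppressors, mitosis and cell cycle, liver metabolism, immune) and the multigene families, the 5 higher and 5 lower probes with the smallest unadjusted p, probes at least 1 from the Chr10 median in all tissues of a mouse, and every segment under the whole chromosome. Of 95 listed single genes 79 had a probe on Chr10, 7 of them under an older name. The RefSeq gene table for GRCm38.p6, used for names only, held 610 of the 1005 Chr10 names as current symbols and 109 as older ones. Tissues of the same animal pair the groups: probe deviations from the group means had correlations of 0.13 to 0.29 within mice, against -0.21 to 0.087 across mice. Alternatives were other centrings, normexp background correction (offset 50), forward arrays only, the series matrix ratios, outlier marks kept, dim probes left out, mouse or scan day as a block, each tissue left out, probe medians, windows of 5 and 20 Mb, other event sizes, other segment settings, and, added after seeing the data, GC content regressed out and the 4 far probes left out.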

Additional observations from a re-analysis of the deposited data

Results flagged for a closer look

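In 32 measures examined over the 5 HCC (the Chr10 level, its windows, its breakpoints and single probes), a tissue stood far from the other 4 in 2, by a test of the gap to the nearest value over the whole range. Chance flags about 1 in 20 such groups. The number of Chr10 breakpoints was 8 in HCC 5, with 2 in HCC 4 and 0 in the others, a gap of 0.75 of the range. The Slc16a7 probe A_53_P111659 read -0.64 in HCC 5, a gap of 0.79 of the range. Relative to the Chr10 median of each tumour it read -0.091 in HCC 5, inside the -0.23 to -0.0575 of the other tumours. The Chr10 level itself had a gap of 0.58 and was not among them.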

How the results depend on the processing

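The difference between HCC and liver in the Chr10 level stayed negative under 20 of 22 alternatives, and limma called it under none of those it was fitted to. It turned to 0.052 without HCC 5 and to 0.018 among the tissues of scan day 2, which lack HCC 5, and leaving out a tissue at a time gave -0.13 to 0.052. With the mouse as a block, which pairs tissues of the same animal, it was -0.037 (limma adjusted p = 0.786), and the block changed no other call. The spread over windows passed the exact permutation test only with normexp correction, at 0.010, and the cause was not tested. Without HCC 5 the difference in absolute level was 0.055. The absolute level and the breakpoints stayed on their side of the threshold under all 19 and 22 alternatives, and the counts of 0 windows and 0 probes called did not move under 20 and 18. The level of HCC 5 ran from -0.80 to -0.47 over 8 alternatives, with the extremes from centring on the mode and from normexp. With 3 livers, 5 tumours and 1 array for HCC 3, a change in a single tumour has no replicate, and the noise between neighbouring probes, 0.11 in HCC 5 and up to 0.20 in HCC 3, sets how small a segment can be seen.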
